A study of Mus musculus with 21 samples.

Results

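The comparison sets mouse CD8 T cells that had been activated and then kept for 10 days in a low dose of interleukin-15 (IL-15), 5 IU/mL, against the naive cells from which such cultures start, and asks which genes stood at the naive level again and which did not. It takes every cell of the library of day 10 with 5 IU/mL IL-15, 5451 cells, and every cell of the day 0 library, 4777 cells, which together were 10228 of the 106456 cells of the 21 libraries in the series. All cells came from the OT1 line, whose CD8 T cells carry 1 transgenic T cell receptor against a peptide of ovalbumin. Naive cells were untreated, and cultured cells had been activated on day 0 with beads coated with anti-CD3 and anti-CD28. The libraries of days 3 and 5 of the same 5 IU/mL IL-15 culture, with 4658 and 7105 cells, show how far each gene had moved in between. Each condition had 1 library, so no difference below has a replicate check, no test was made, and intervals cover counting error alone. The labels do not give the age, sex or number of the mice, nor how long the beads stayed in the culture.

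A naive CD8 T cell is small and quiescent, recirculates through blood and lymph nodes, and is kept alive mainly by interleukin-7. Activation through the T cell receptor and CD28 starts growth, glycolysis, sterol synthesis and repeated division, and turns off much of the naive programme. IL-15 shares the beta and common gamma receptor chains with interleukin-2 and is known for keeping memory CD8 T cells alive, with slow division. After activation ceases, T cells can return to a small, quiescent state while some genes keep the level set by activation.

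The summed depth of the pair was close, with 18468030 UMIs in the naive library and 23311265 on day 10 (a UMI marks 1 captured RNA molecule). The median cell held 3799 UMIs and 1431 genes in the naive library and 3927 UMIs and 1438 genes on day 10. Cytosolic ribosomal protein genes took 37.4% of the naive UMIs and 41.1% on day 10, and mitochondrial genes took 4.25% and 3.60%. The pair shared 5 cell barcodes. Both libraries had the markers of CD8 T cells. After thinning every cell to 2000 UMIs, Cd3d, a chain of the CD3 complex, was found in 82.5% of naive and 90.7% of day 10 cells, and Cd8b1, the CD8 beta chain, in 78.5% and 79.8%. Of the markers of other cells, a UMI of Cd4 was found in 22 of 4471 thinned naive cells and 3 of 5394 thinned day 10 cells, and a UMI of Lyz2, a myeloid gene, in 5 and 0. A UMI of Ms4a1, a B cell gene, was found in 0 thinned cells of either library, which allows shares of cells with such a UMI of up to 0.0671% and 0.0556%, and before thinning in 1 naive cell. Cells with at least 2 B cell, myeloid or erythroid markers, or with Cd4 and no CD8 chain, were 12.0% of the naive library and 3.82% of the day 10 library. Without them 73 genes were higher on day 10 and 192 lower, close to the counts below. The sum of the 8 B cell markers was 419 CPM (UMIs of a gene scaled to the same total in each library) in naive cells and 398 CPM on day 10, of which Ighm made up 377 and 385 CPM. Ighd was lower, at 20.1 and 6.52 CPM, and was 1 of 2 B cell markers at 20 CPM in the pair. The myeloid list summed to 68.0 and 68.8 CPM, of which Cst3 made up 61.0 and 68.2 CPM, and all 3 erythroid markers in the tables were at 0 in both libraries. The list of natural killer and gamma delta T cells summed to 303 and 270 CPM, of which Trdc made up 257 and 264 CPM. The CD4 and regulatory T cell list summed to 20.7 CPM in naive cells and 2.79 CPM on day 10. The extraction text in the labels speaks of a sort of CD44-positive T cells from tumours. Cd44 RNA stood at 25.1 CPM in naive cells and 11.6 CPM on day 10, the lowest of the 21 libraries. A sort reads the surface protein, so the RNA does not show whether such a sort was made. The cells were taken as cultured or naive cells, as the growth text describes them.

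On day 10 most genes were close to the naive level. Among 5698 genes with at least 20 CPM in either library, 4551 (79.9%) lay within 0.5 of the naive level on the log2(CPM + 1) scale, on which low genes appear less changed than they are. In sums over a library, fewer cells of a kind and less RNA per cell cannot be told apart. On day 3 that share was 51.3% and on day 5 it was 66.6%, each over the genes at 20 CPM in its own pair. On day 10, 71 genes (1.25%) stood 2-fold or more above naive cells and 202 (3.55%) as far below, together 273 (4.79%). On day 3 the same rule called 1156 of 6227 genes (18.6%), 745 higher (12.0%) and 411 lower (6.60%). On day 5 it called 470 of 5726 (8.21%), 204 higher (3.56%) and 266 lower (4.65%). These 3 comparisons share the naive library. The balance of the day 10 calls differed between scalings. With trimmed means of M values (TMM), which moved the median over all genes from -0.08 to 0.07, 105 genes were higher and 150 lower. When CPM was taken over totals free of ribosomal protein and mitochondrial genes, 119 were higher and 270 lower. Those smaller totals raise every CPM, so that more genes pass 20 CPM and the added 1 weighs less. At 20 CPM a value rested on 369 UMIs in the naive library and 466 on day 10. The 95% exact Poisson intervals were 18.01 to 22.1 and 18.2 to 21.9 CPM, small beside a 2-fold difference. They treat UMIs as independent, but UMIs can gather in few cells. Hist1h1b was found in 29 naive cells, at a mean of 10.5 UMIs per positive cell. A gene needed 20 CPM in only 1 library, so its lower value can rest on fewer UMIs.

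**Figure D1:**
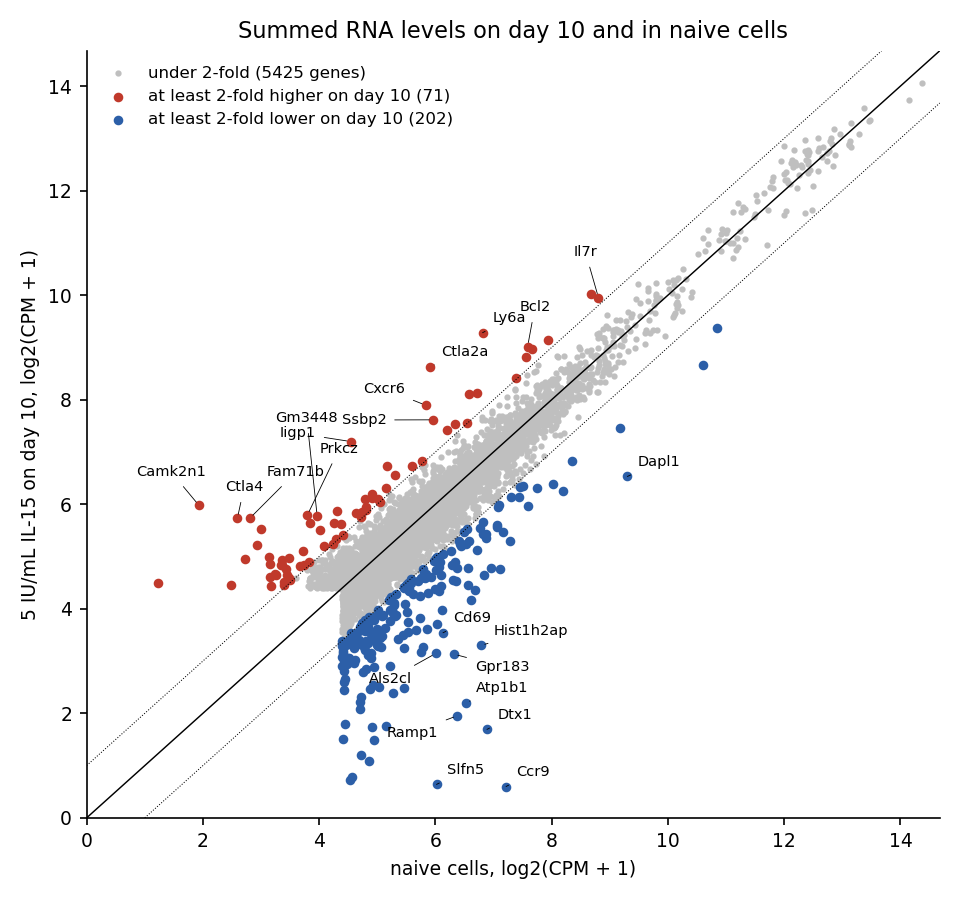
Level of each of 5698 genes in naive cells (x axis) and on day 10 in 5 IU/mL IL-15 (y axis), both as log2(CPM + 1) of UMIs summed over a library. Each point is a gene, the solid line marks equal levels and the dotted lines 2-fold, and the 71 higher (red) and 202 lower (blue) genes include Ccr9 and Dtx1 far below the line and Ly6a, Ctla2a and Il7r above it.

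The path over days 3 and 5 showed how those levels were reached. For 6370 genes with at least 20 CPM in any of the 4 libraries, 751 (11.8%) were raised at least 2-fold on day 3 and 416 (6.53%) were lowered. A gene was counted as returned where its day 10 difference from naive cells was under 0.5 in size on the log2 scale. It was partly returned at 0.5 to 1 in the day 3 direction and stayed at 1 or more in that direction. It was crossed at 0.5 or more in the other direction. Of the raised genes, 466 (62.1%) had returned, 90 were partly returned, 51 (6.79%) had stayed and 144 (19.2%) had crossed to below the naive level. The number of genes raised on day 3 that had crossed was 59 without cells carrying a Mki67 or Top2a UMI, 93 without cells above 2 times the median UMIs and 32 with a pseudocount of 10. The number that had stayed was 16 with that pseudocount and 89 with totals free of ribosomal protein and mitochondrial genes. Of the lowered genes, 197 (47.4%) had returned, 107 were partly returned, 98 (23.6%) had stayed and 14 (3.37%) had crossed. Return was in progress on day 5, when 178 of the 466 returned raised genes (38.2%) and 55 of the 197 returned lowered genes (27.9%) were already within 0.5 of the naive level. On day 10, 95 of the 6370 genes (1.49%) stood 2-fold or more above naive cells and 258 (4.05%) as far below. Of these, 41 higher and 102 lower genes had not moved 2-fold on day 3, and are called late here. With TMM the late genes were split almost evenly between higher and lower, as given further below.

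**Figure D2:**
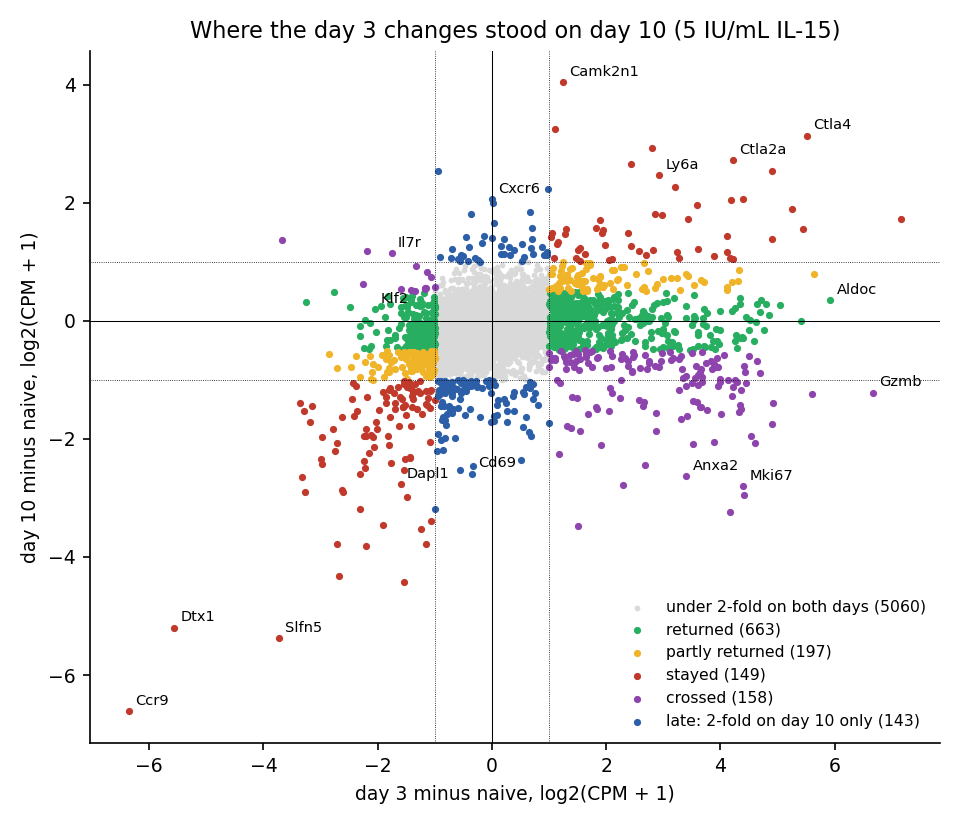
Difference from naive cells on day 3 (x axis) and on day 10 (y axis) in the 5 IU/mL IL-15 culture, log2(CPM + 1) scale, for 6370 genes coloured by class, with dotted lines at 2-fold. Both axes share the naive library. The 663 returned genes lie along the horizontal zero line, the 149 that stayed lie in the lower left and upper right, and the 158 crossed genes lie mainly in the lower right.

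Among lowered genes that returned, were regulators of recirculation and of the naive state. Klf2, a transcription factor that holds T cells in quiescence and drives exit from tissue into blood, went from 883 CPM in naive cells to 212, 453 and 1016 CPM on days 3, 5 and 10. Its target S1pr1, the receptor for the lipid that draws T cells out of lymph nodes, stood at 448 CPM in naive cells and 164, 320.1 and 428 CPM on days 3, 5 and 10. Both were therefore within 0.5 of the naive level on day 10, with the day 10 differences at 0.20 and -0.07. Tcf7, which encodes the naive and memory factor TCF1, went from 471 CPM in naive cells to 211, 252 and 369 CPM on days 3, 5 and 10. Id3, an inhibitor of E proteins, went from 122 CPM in naive cells to 49.2, 123 and 103 CPM on days 3, 5 and 10. Tcf7 thus ended below its naive level by a difference of -0.35, and Id3 by -0.25. The lymph node chemokine receptor gene Ccr7 never moved by 2-fold. It stood at 241 CPM in naive cells and 133, 198 and 302 CPM on days 3, 5 and 10, and its day 10 level was the highest of the 21 libraries. The 5 returned genes that had been furthest down on day 3, among genes reaching 50 CPM, were Rflnb, Itgae, Ccl5, Actn1 and Gm2682. Rflnb, which encodes refilin B, a binder of filamin, stood at 131 CPM in naive cells and 12.8, 25.9 and 165 CPM on days 3, 5 and 10. Itgae, the alpha E integrin CD103 that holds T cells in epithelia, went from 43.8 CPM in naive cells to 5.58, 19.0 and 62.2 CPM on days 3, 5 and 10. Actn1, an actin crosslinker, went from 279 CPM in naive cells to 55.7, 135 and 261 CPM on days 3, 5 and 10. All 3 were under the naive level on days 3 and 5 and within 0.5 of it on day 10. Itgae lay at that limit, at a difference of 0.50, and reached 0.63 with TMM, where it would count as crossed. The noncoding gene Gm2682 stood at 261 CPM in naive cells and 58.8, 175 and 255 CPM on days 3, 5 and 10. On day 10, Rflnb and Itgae were higher than in any other library of the series.

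Of the genes of the naive and quiescence list that were lowered, some returned and some stayed lower. Of its 19 measured genes, 9 were lowered at least 2-fold on day 3 and none was raised, against 6.53% lowered over all genes. Of these 9, 5 had returned by day 10 (Btg1, Id3, Zeb1, Klf2 and Tcf7), 1 was partly returned (Ets1, at a difference of -0.62) and 3 had stayed lower (Dtx1, Dapl1 and Klf3). Of all lowered genes 47.4% had returned and 23.6% had stayed. Its median difference from naive cells was -0.97 on day 3, -0.39 on day 5 and -0.28 on day 10, and the median over all 6370 genes was -0.08 on day 10. With TMM the day 10 median of the list was -0.15. Slfn2, a schlafen protein that keeps T cells quiescent, was instead late and higher, at 243 CPM in naive cells and 149, 377 and 567 CPM on days 3, 5 and 10. Counted per cell after thinning to 2000 UMIs, the list gave a median of 13 UMIs in naive cells, 6 on day 3, 10 on day 5 and 11 on day 10.

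Several naive genes did not return at all. Ccr9, the receptor for the gut chemokine CCL25 (chr9:123678439-123784330, GRCm38), stood at 148 CPM in naive cells and 0.816, 0.903 and 0.515 CPM on days 3, 5 and 10. It was found in 21.8% of thinned naive cells (95% interval 20.6% to 23.1%) and 0.0927% of thinned day 10 cells (0.0301% to 0.216%), or 33.2% and 0.183% unthinned, and the naive level was 287 times that of day 10, which rested on 12 UMIs. The gene Dtx1 (deltex 1, a ubiquitin ligase tied to Notch signalling and T cell anergy, chr5:120680202-120711927) stood at 117 CPM in naive cells and 1.496, 1.61 and 2.23 CPM on days 3, 5 and 10. Slfn5, a member of the schlafen family (chr11:82951349-82964840), stood at 63.8 CPM in naive cells and 3.90, 3.95 and 0.558 CPM on days 3, 5 and 10. For these 3 genes the 3 libraries of the culture lay far under the naive one, and Ccr9 and Dtx1 were at their low levels from day 3 on. Ramp1, which pairs with the receptor for the neuropeptide CGRP, fell later, from 82.2 CPM in naive cells to 27.5, 6.86 and 2.87 CPM on days 3, 5 and 10. Atp1b1, a subunit of the sodium pump, went from 90.9 CPM in naive cells to 13.4, 11.8 and 3.60 CPM on days 3, 5 and 10. Gpr183, the oxysterol receptor EBI2 that positions lymphocytes in follicles and at their borders, went from 78.7 CPM in naive cells to 15.1, 13.5 and 7.76 CPM on days 3, 5 and 10. All 3 were still lower on day 10 than on day 3. Als2cl, a gene similar to the guanine exchange factor alsin, stood at 63.3 CPM in naive cells and 9.47, 7.63 and 7.85 CPM on days 3, 5 and 10. Dapl1, a marker of naive and stem-like CD8 T cells, declined in steps, from 630.3 CPM in naive cells to 208, 175 and 91.5 CPM on days 3, 5 and 10. Cells with a Dapl1 UMI were 50.7% of thinned naive cells (95% interval 49.3% to 52.2%) and 12.3% of thinned day 10 cells (11.5% to 13.2%), or 58.7% and 18.6% unthinned. These 8 genes, with Cd69 and Hist1h2ap described below, had the 10 lowest day 10 differences among genes reaching 50 CPM in the pair. Other naive genes stayed lower with part of the loss regained. Klf3, a repressor related to Klf2, went from 259 CPM in naive cells to 40.9, 49.1 and 83.0 CPM on days 3, 5 and 10. Il6ra, the interleukin-6 receptor, went from 116 CPM in naive cells to 10.97, 19.8 and 39.9 CPM on days 3, 5 and 10, and its partner Il6st (gp130) from 132 CPM in naive cells to 40.1, 35.7 and 46.1 CPM on days 3, 5 and 10. All 3 were lowest on day 3 or 5, and on day 10 only naive cells among the 21 libraries had more of each. Tox, a factor of T cell development and exhaustion, regained none, at 93.6 CPM in naive cells and 26.1, 22.4 and 21.0 CPM on days 3, 5 and 10. Runx1, a factor of T cell development, was alike, at 42.6 CPM in naive cells and 11.4, 11.4 and 10.3 CPM on days 3, 5 and 10.

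Fewer genes stayed raised, among them Ly6a, Ctla2a and Ctla4. Ly6a (Sca-1, chr15:74994877-74998031) stood at 111 CPM in naive cells and 854, 666 and 621 CPM on days 3, 5 and 10. The share of cells with a Ly6a UMI was 14.7% of thinned naive cells (95% interval 13.7% to 15.8%) and 63.7% of thinned day 10 cells (62.4% to 65.0%), or 21.4% and 82.2% unthinned. Ctla2a, a cysteine protease inhibitor, stood at 59.3 CPM in naive cells and 1123, 697 and 396 CPM on days 3, 5 and 10. Without cells carrying a Ccl5 UMI, its day 10 difference was 4.18 rather than 2.72. Ctla4, the inhibitory receptor (chr1:60887000-60915832), stood at 5.04 CPM in naive cells and 274, 127 and 52.2 CPM on days 3, 5 and 10. It was found in 0.805% of thinned naive cells (95% interval 0.565% to 1.11%) and 10.1% of thinned day 10 cells (9.33% to 10.96%), or 1.26% and 18.6% unthinned. Ly6a, Ctla2a and Ctla4 thus fell from a day 3 peak without reaching the naive level, which was the lowest of all 21 libraries for each. Camk2n1, an inhibitor of the calcium-dependent kinase CaMKII (chr4:138454314-138460123), took another path, from 2.82 CPM in naive cells to 8.07, 15.7 and 62.0 CPM on days 3, 5 and 10. It was highest of the 21 libraries on day 10 and lowest in naive cells. Fam71b kept nearly 1 level after activation, with 6.01 CPM in naive cells and 48.0, 48.0 and 52.2 CPM on days 3, 5 and 10. Ifngr1, the ligand-binding chain of the interferon gamma receptor, was chosen after its values were seen, and stood at 94.7 CPM in naive cells, 369 on day 3, 328 on day 5 and 276 on day 10. Irf4, a factor induced by receptor signals, stayed above naive cells at a low level, from 1.08 CPM in naive cells to 43.0, 13.9 and 7.72 CPM on days 3, 5 and 10. Lag3, another inhibitory receptor, did so as well, from 1.08 CPM in naive cells to 90.1, 17.8 and 5.10 CPM on days 3, 5 and 10. Ctla4 and Lag3 were on a list of inhibitory and costimulatory receptors, of which 7 were measured. On day 10, Ctla4 and Lag3 were at least 2-fold higher and the inhibitory Btla and the costimulatory Tnfrsf9 and Tnfrsf4 as far below, against 1.49% and 4.05% of the 6370 genes. Btla, a receptor for the ligand HVEM, was late, going from 30.9 CPM in naive cells to 31.8, 22.4 and 8.88 CPM on days 3, 5 and 10.

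**Figure D3:**
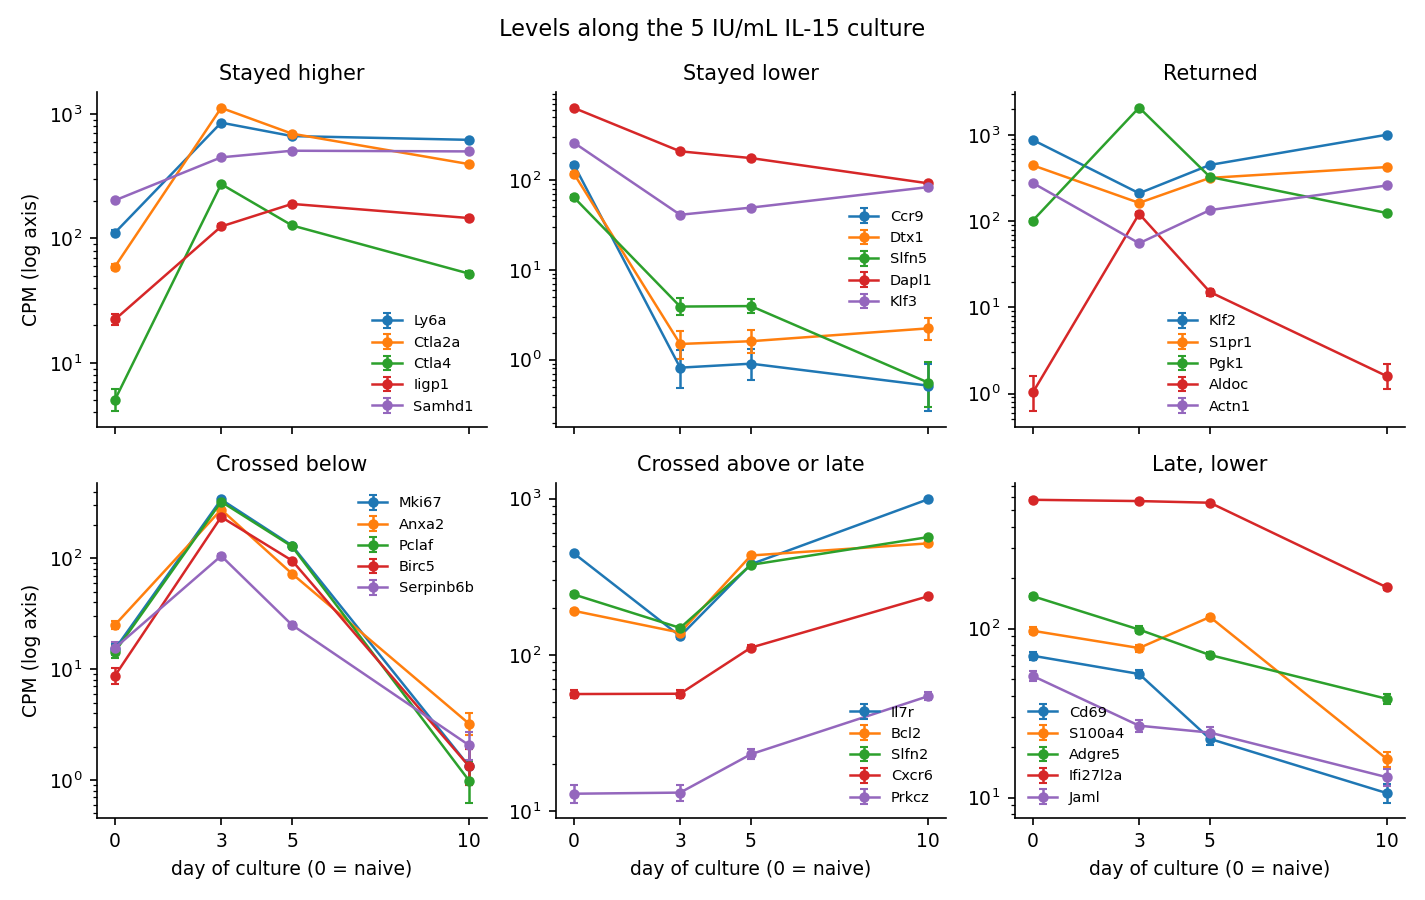
CPM (log axis) on day 0 (naive), 3, 5 and 10 of the 5 IU/mL IL-15 culture for genes of 6 patterns, with 95% exact Poisson intervals as bars (counting error only, 1 library per point). Ccr9, Dtx1 and Slfn5 stayed more than 10-fold under the naive level, Klf2 and S1pr1 came back to it, Mki67 and Anxa2 ended below it, and Il7r ended above it.

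The survival genes Il7r and Bcl2 ended above the naive level. Il7r, the alpha chain of the interleukin-7 receptor (chr15:9505788-9530176), crossed, from 446 CPM in naive cells to 132, 380.1 and 991 CPM on days 3, 5 and 10. It was found in 46.1% of thinned naive cells (95% interval 44.7% to 47.6%) and 75.4% of thinned day 10 cells (74.2% to 76.5%), or 60.3% and 88.2% unthinned, and its day 10 level was the highest of the 21 libraries and 2.22 times the naive one. Bcl2, the antiapoptotic protein that interleukin-7 and IL-15 maintain, was late and went from 191 CPM in naive cells to 139, 432 and 517 CPM on days 3, 5 and 10, and its day 10 difference was 1.43. For both genes the naive level lay between day 3 and day 10. A separate list of other BCL2 family genes had 7 tested members. Of these, 6 lay within 0.5 of naive cells and 0 were called, with a median of 0.14. The chains of the interleukin-2 receptor, of which beta and gamma also serve IL-15, differed in how far they returned. Il2ra (CD25) stayed raised, going from 5.63 CPM in naive cells to 197, 50.8 and 16.4 CPM on days 3, 5 and 10. Il2rb was partly returned, going from 87.6 CPM in naive cells to 342, 202 and 134 CPM on days 3, 5 and 10. Il2rg was within 0.5 of naive cells on day 10 at a difference of -0.04. Of the feedback genes of this pathway, Socs2 had returned, going from 3.30 CPM in naive cells to 49.6, 24.1 and 3.47 CPM on days 3, 5 and 10. Socs1 was late and higher, going from 47.3 CPM in naive cells to 78.4, 112 and 105 CPM on days 3, 5 and 10. Of 17 tested genes of a list of IL-2, IL-15 and other cytokine receptors and their signalling, Il7r, Bcl2 and Socs1 were at least 2-fold higher on day 10 and Il6ra and Il6st lower by as much, against 1.25% and 3.55% of all tested genes. Their median difference was 0.16, and -0.08 for all tested genes.

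The chemokine receptors Cxcr6 and Cxcr3 of inflamed tissue were also higher. Cxcr6, which binds CXCL16 and holds memory T cells in the liver and other tissues, was late, going from 56.0 CPM in naive cells to 56.3, 111 and 237 CPM on days 3, 5 and 10. Cells with a Cxcr6 UMI made up 8.83% of thinned naive cells (95% interval 8.02% to 9.70%) and 32.1% of thinned day 10 cells (30.9% to 33.4%), or 14.5% and 50.6% unthinned. Cxcr3, the receptor for interferon-induced chemokines, stayed raised, going from 35.0 CPM in naive cells to 87.9, 111 and 106 CPM on days 3, 5 and 10. Ccr2, in contrast, was lower on day 10 than in any other library of the series, going from 14.6 CPM in naive cells to 7.43, 37.1 and 2.83 CPM on days 3, 5 and 10. Without Ccl5-positive cells the day 10 difference was 2.27 rather than 1.56 for Cxcr3. Of 16 tested homing receptors, 8 lay within 0.5 of naive cells, 3 were at least 2-fold higher, with Cxcr6 and Cxcr3 among them, and Ccr9 and Itga6 were as far below. Over all tested genes those shares were 79.9%, 1.25% and 3.55%.

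Other late genes among those with the largest day 10 differences took different paths. Prkcz, an atypical protein kinase C, stood at 12.9 CPM in naive cells and 13.1, 23.1 and 54.3 CPM on days 3, 5 and 10. Ssbp2, a cofactor of LIM-domain factors, went from 61.4 CPM in naive cells to 63.1, 107 and 195 CPM on days 3, 5 and 10. The pattern of Gm3448 was alike, at 14.6 CPM in naive cells and 11.1, 15.9 and 53.8 CPM on days 3, 5 and 10. Each of these 3 was higher on day 10 than in any other of the 21 libraries. Cd69, the early activation marker that also blocks S1pr1 at the surface, was late and lower, going from 69.0 CPM in naive cells to 53.9, 22.3 and 10.6 CPM on days 3, 5 and 10, the last being the lowest of the 21. Adgre5 (CD97), an adhesion receptor, went from 155 CPM in naive cells to 98.6, 69.8 and 38.4 CPM on days 3, 5 and 10. Jaml, an adhesion molecule of T cells and neutrophils, went from 52.4 CPM in naive cells to 26.7, 24.3 and 13.2 CPM on days 3, 5 and 10. The uncharacterised gene B930036N10Rik stood at 123 CPM in naive cells and 67.2, 34.0 and 26.3 CPM on days 3, 5 and 10. These 3 were below naive cells in all 3 libraries of the culture and lowest of the course on day 10. S100a4, a calcium-binding protein of effector and memory cells, differed from them in dropping after day 5, going from 97.0 CPM in naive cells to 76.7, 117 and 16.9 CPM on days 3, 5 and 10. Without cells carrying a Ccl5 UMI the day 10 difference was -3.97 rather than -2.45 for S100a4, and -2.72 rather than -1.91 for Jaml. S100a4 was found in 4.59% of thinned naive cells (95% interval 3.99% to 5.24%) and 1.91% of thinned day 10 cells (1.56% to 2.31%), or 6.24% and 2.72% unthinned, and among its positive cells, before thinning, the mean was 6.01 UMIs in naive and 2.66 on day 10.

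On a list of T cell receptor genes, Cd69, Trat1, Cd6 and Cd5 were at least 2-fold lower on day 10. They were 4 of 24 genes, which cover the receptor complex, CD8, signalling adaptors and kinases, receptors that modulate the signal, and the activation marker Cd69, and of which 17 lay within 0.5 of naive cells and 0 were 2-fold higher. Over all tested genes 79.9% lay within 0.5, 1.25% were higher and 3.55% lower. Trat1, an adaptor that stabilises the receptor complex, stood at 42.8 CPM in naive cells and 21.6, 12.5 and 8.49 CPM on days 3, 5 and 10. Cd5 and Cd6, a pair of related receptors that damp receptor signals, also fell. Cd5 went from 175 CPM in naive cells to 97.3, 87.9 and 79.1 CPM on days 3, 5 and 10. Cd6 went from 181 CPM in naive cells to 108, 91.1 and 80.9 CPM on days 3, 5 and 10. All 3 declined from library to library without a 2-fold change on day 3, and naive cells were the highest of the 21 libraries for each. The CD3 chain gene Cd3e stood at 626 CPM in naive cells and 581, 672 and 666 CPM on days 3, 5 and 10. The median of the list was -0.25 on day 10, and -0.08 over all tested genes. With TMM the list median was -0.12, and 15 rather than 18 of the 24 genes were below naive cells.

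Interferon-stimulated genes, which are switched on by interferons through STAT and IRF factors, parted in 2 directions. Of 26 tested, 6 were at least 2-fold lower on day 10 (Isg15, Ifit1, Ifit3, Irf7, Rtp4 and Ifi27l2a) and 3 at least 2-fold higher (Iigp1, Samhd1 and Igtp), against 3.55% and 1.25% of all tested genes. Their median was -0.18, and -0.05 with TMM. Ifit1, which blocks translation of foreign RNA, went from 37.6 CPM in naive cells to 5.35, 8.43 and 4.20 CPM on days 3, 5 and 10. Isg15, a ubiquitin-like protein with 1 near copy in the genome, went from 53.2 CPM in naive cells to 9.97, 18.3 and 8.02 CPM on days 3, 5 and 10. Ifit3 went from 27.1 CPM in naive cells to 2.18, 6.09 and 9.39 CPM on days 3, 5 and 10. Of these 3, Ifit1 and Isg15 were lowest of the course on day 10 and Ifit3 on day 3. Rtp4, a chaperone, went from 49.9 CPM in naive cells to 6.75, 22.1 and 11.1 CPM on days 3, 5 and 10. Irf7, the factor that amplifies type I interferon, went from 52.2 CPM in naive cells to 20.5, 23.6 and 17.97 CPM on days 3, 5 and 10. These 5 were lower than in naive cells in all 3 libraries of the culture. Ifi27l2a differed in holding the naive level through day 5, going from 577 CPM in naive cells to 567, 554 and 175 CPM on days 3, 5 and 10. Igtp and Iigp1 encode GTPases that interferon gamma induces against intracellular parasites. Iigp1 went from 22.3 CPM in naive cells to 125, 189.7 and 146 CPM on days 3, 5 and 10. Igtp went from 72.2 CPM in naive cells to 213, 239.5 and 171 CPM on days 3, 5 and 10. Samhd1, an enzyme that breaks down deoxynucleotides, stood at 203 CPM in naive cells and 449, 508 and 502 CPM on days 3, 5 and 10. All 3 were above naive cells in all 3 libraries of the culture. In single cells the whole list gave a median of 4 UMIs per thinned cell in both libraries, and 10.8% of naive and 8.40% of day 10 cells had at least 10.

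The promoters of these genes are shown so that the sites of interferon response can be seen beside the values, first for a pair of lower genes and then for a pair of higher ones. Each line is the 250 bases upstream of the RefSeq start in GRCm38.p6, 5′ to 3′ on the gene's strand, with matches to 2 motifs in capitals, searched on both strands. The first is the core of the interferon-stimulated response element (ISRE), TTTC, any 2 bases and TTTC, and the second the gamma-activated site (GAS), TTCNNNGAA.
Isg15, chr4:156200819-156201068, minus strand: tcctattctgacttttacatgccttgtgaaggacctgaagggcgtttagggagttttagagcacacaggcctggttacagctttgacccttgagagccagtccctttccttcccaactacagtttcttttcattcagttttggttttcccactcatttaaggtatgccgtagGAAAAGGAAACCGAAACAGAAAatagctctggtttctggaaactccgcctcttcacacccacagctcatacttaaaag
Ifit1, chr19:34640639-34640888, plus strand: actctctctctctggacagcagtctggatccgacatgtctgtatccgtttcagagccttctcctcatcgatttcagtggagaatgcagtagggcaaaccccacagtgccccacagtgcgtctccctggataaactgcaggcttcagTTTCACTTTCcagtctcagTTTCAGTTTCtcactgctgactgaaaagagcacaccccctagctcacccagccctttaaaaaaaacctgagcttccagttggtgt
Igtp, chr11:58199306-58199555, plus strand: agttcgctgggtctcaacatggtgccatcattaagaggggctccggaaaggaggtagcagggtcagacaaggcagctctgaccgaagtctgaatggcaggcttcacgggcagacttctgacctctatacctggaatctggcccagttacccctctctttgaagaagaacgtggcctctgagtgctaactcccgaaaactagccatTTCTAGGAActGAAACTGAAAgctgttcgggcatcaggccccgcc
Samhd1, chr2:157135097-157135346, minus strand: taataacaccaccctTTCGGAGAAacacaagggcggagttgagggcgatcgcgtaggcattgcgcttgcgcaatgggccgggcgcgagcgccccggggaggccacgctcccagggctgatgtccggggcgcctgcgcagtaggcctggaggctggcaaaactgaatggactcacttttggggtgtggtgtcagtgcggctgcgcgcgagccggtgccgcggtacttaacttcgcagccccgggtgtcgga
The Isg15 promoter held 3 ISRE matches that overlap one another, and the Ifit1 promoter held 2. The Igtp promoter held 1 match to each motif, and Samhd1 held 1 GAS match. Of the 20 tested genes of the list with a promoter in the table, 14 had an ISRE match and 6 a GAS match. Over all 32851 promoters an ISRE match was present in 2.98% and a GAS match in 7.02%. These shares are per promoter, whereas a gene was counted with a match in any of its promoters, of which Isg20 had 3. Of the 4 lower genes with a promoter, 3 had an ISRE match and 0 a GAS match, and of the 2 higher ones 1 had an ISRE match and 2 a GAS match. Of the 14 genes in between, 10 had an ISRE match and 4 a GAS match. A match is a string of letters and no evidence of binding, and the numbers are too small for a comparison.

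Glycolysis genes rose on day 3 and were closer to the naive level on day 10. Of 19 measured glycolysis genes, 16 were raised at least 2-fold on day 3 (11.8% over all genes) and none was lowered. On day 10, 10 of these 16 had returned, 4 were partly returned and 2 had stayed. The returned share was near the 62.1% of all raised genes. The median of the 19 went from 2.13 on day 3 to 0.76 on day 5 and 0.34 on day 10, and 13 were still above naive cells. Aldoc, aldolase C, had the largest rise of any returned gene reaching 50 CPM, from 1.03 CPM in naive cells to 123, 15.1 and 1.59 CPM on days 3, 5 and 10. Pgk1, phosphoglycerate kinase, went from 102 CPM in naive cells to 2102, 328 and 125 CPM on days 3, 5 and 10. Ldha, lactate dehydrogenase A, went from 257 CPM in naive cells to 1095, 346 and 239 CPM on days 3, 5 and 10. All 3 were highest on day 3 and within 0.5 of naive cells on day 10. Gapdh, which has processed copies in the genome that can share reads, was partly returned, going from 276 CPM in naive cells to 3494, 915 and 447 CPM on days 3, 5 and 10. The genes Hk2 (hexokinase 2) and Bnip3 (a mitophagy protein) had stayed, at differences of 1.17 and 1.72, both from naive levels under 3 CPM. In thinned cells the list gave a median of 3 UMIs per naive cell, 25 on day 3, 5 on day 5 and 4 on day 10.

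Cholesterol synthesis genes went past the naive level. Of 21 measured, 20 were raised on day 3, against 11.8% of all genes. On day 10, 6 of these had returned and 14 had crossed, against 19.2% of all raised genes. In all 20 of the 21 were below naive cells, 3 of them by at least 2-fold (4.05% over all genes), and 20 were below with TMM and with totals that left out ribosomal protein and mitochondrial genes. The median moved from 2.47 on day 3 to 0.29 on day 5 and -0.61 on day 10. Over the 6 cholesterol synthesis genes with at least 20 CPM in the pair the day 10 median was -0.53, and at a filter of 50 CPM, which leaves fewer genes, it was 0.45. Fdps, which makes farnesyl diphosphate, went from 38.1 CPM in naive cells to 376, 51.9 and 16.3 CPM on days 3, 5 and 10. Idi1, the isomerase before it, went from 17.9 CPM in naive cells to 112, 26.5 and 6.48 CPM on days 3, 5 and 10. Both ended below the naive level and at their lowest of the 21 libraries.

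Nuclear oxidative phosphorylation, ribosomal protein and antigen presentation genes were near the naive level. Of 75 nuclear oxidative phosphorylation genes, 72 were within 0.5 of naive cells, with a median of 0.06, where 79.9% of all tested genes were within 0.5. Of the 13 oxidative phosphorylation genes of mitochondrial DNA, 11 were within 0.5 and 10 below naive cells, with a median of -0.27, which was -0.14 with TMM. Without TMM the median over all tested genes was -0.08. Of 14 class I presentation genes, 13 were within 0.5, with a median of -0.05, which was 0.08 under TMM scaling and 0.03 with totals that left ribosomal protein and mitochondrial genes out. None of the 81 measured ribosomal protein genes was called, and their median was 0.20, with 73 within 0.5 and 56 above naive cells. With TMM the median was 0.33, 67 were above naive cells and 1 was at least 2-fold higher. In thinned cells the ribosomal protein genes gave a median of 770 UMIs of 2000 per naive cell and 823 on day 10, and the 5th percentile was 492.5 and 660.

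**Figure D4:**
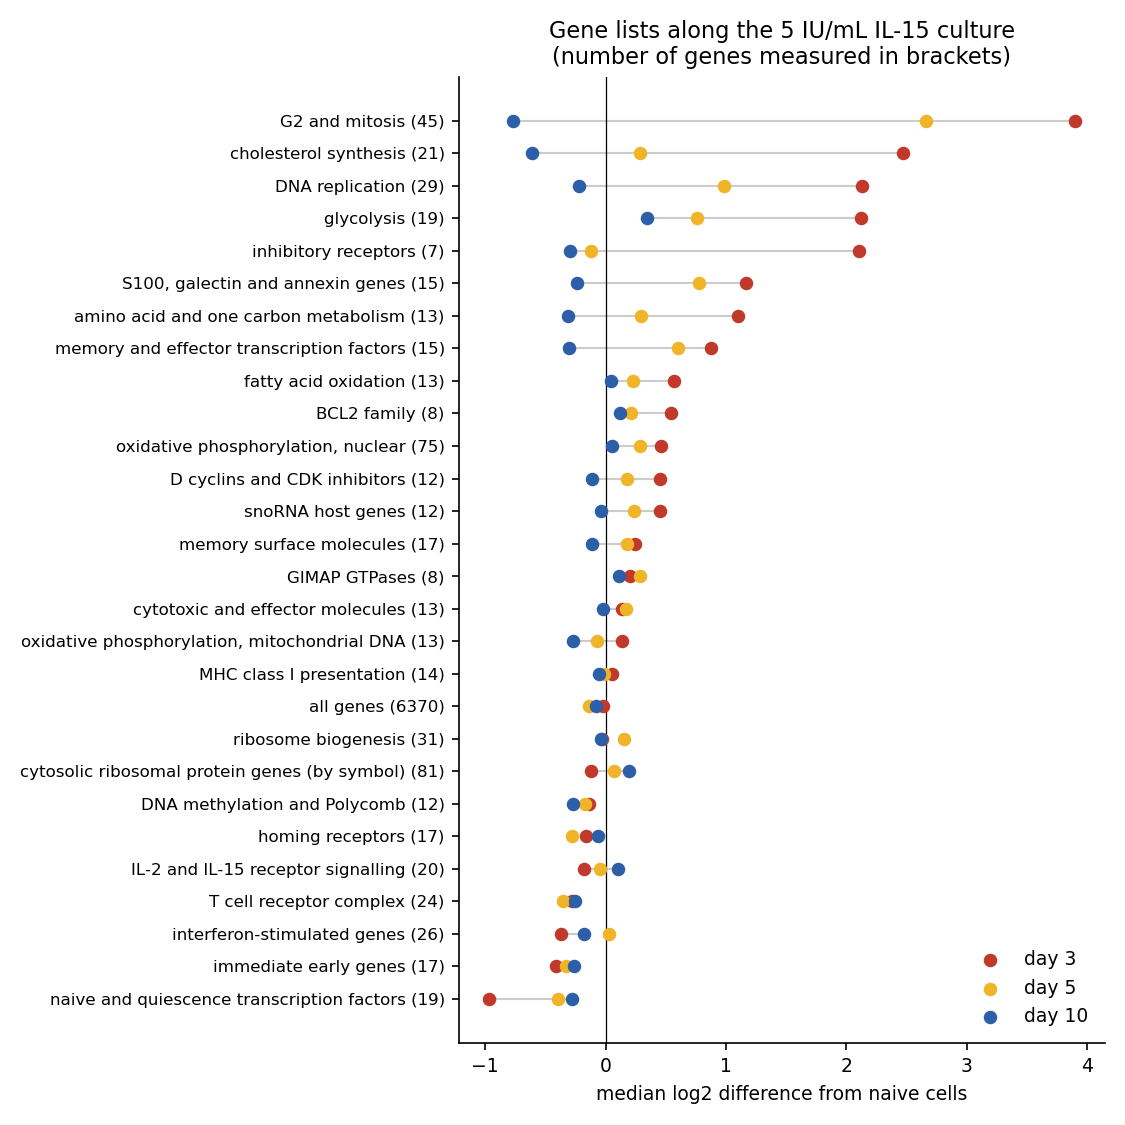
Median log2(CPM + 1) difference from naive cells of each gene list on day 3 (red), day 5 (yellow) and day 10 (blue) of the 5 IU/mL IL-15 culture, over genes with at least 20 CPM in any of the 4 libraries (number in brackets). All points share the naive library. G2 and mitosis genes went from 3.90 to -0.77 and cholesterol synthesis genes from 2.47 to -0.61, while glycolysis genes ended at 0.34.

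Summed over all cells, most G2 and mitosis genes were below the naive level on day 10, and DNA replication genes were closer to it. Of 45 measured G2 and mitosis genes, 43 were raised on day 3, against 11.8% of all genes. On day 10, 28 of these had crossed, against 19.2% of all raised genes, 13 had returned and 2 were partly returned, and 38 of the 45 were below naive cells, 15 of them by at least 2-fold, against 4.05% of all genes of the course. The median of -0.77 was -0.41 with CPM averaged over single cells, where 9 G2 and mitosis genes were 2-fold lower. With totals free of ribosomal protein and mitochondrial genes it was -0.92, and 21 were 2-fold lower. Of the 8 with at least 20 CPM in the pair, 5 lay within 0.5 of naive cells and 1 was 2-fold lower. Over all tested genes those shares were 79.9% and 3.55%. The median of these 8 was 0.08, so the lower median of the list came with genes under 20 CPM in both libraries. Mki67, which encodes the proliferation marker Ki-67, went from 15.2 CPM in naive cells to 339.6, 131 and 1.33 CPM on days 3, 5 and 10. Birc5 (survivin) went from 8.72 CPM in naive cells to 236, 95.5 and 1.33 CPM on days 3, 5 and 10. Kif11, a motor of the mitotic spindle, went from 4.76 CPM in naive cells to 84.3, 33.0 and 0.386 CPM on days 3, 5 and 10. Each ended under its naive level and lowest of the 21 libraries. Of 29 DNA replication genes 28 were raised on day 3, and 21 of these had returned and 7 had crossed, against 62.1% and 19.2% of all raised genes. On day 10, 21 of the 29 DNA replication genes were below naive cells, with a median of -0.22, and with TMM 18 were, with a median of -0.10. The median over all genes of the course was -0.08 without TMM, so more of them lay below naive cells than above. Of the 10 with at least 20 CPM in the pair, 8 lay within 0.5 of naive cells, near the 79.9% of all tested genes, and 0 were 2-fold lower. Pclaf, a partner of the replication clamp, went from 14.3 CPM in naive cells to 325, 128 and 0.987 CPM on days 3, 5 and 10. The clamp itself, Pcna, went from 78.1 CPM in naive cells to 248, 108 and 52.7 CPM on days 3, 5 and 10. The linker histone gene Hist1h1b went from 16.5 CPM in naive cells to 315, 275 and 0.858 CPM on days 3, 5 and 10. These 3, too, were lowest of the 21 libraries on day 10. Hist1h2ap, a histone gene with near-identical copies whose reads may be split among them, went from 109 CPM in naive cells to 313, 351 and 8.84 CPM on days 3, 5 and 10. Ccnb1, which also has near copies, Dtl, Cenpm and 1500009L16Rik were among the 5 returned genes that had been furthest up. Dtl, a replication-linked ubiquitin ligase subunit, went from 1.14 CPM in naive cells to 51.8, 11.1 and 1.12 CPM on days 3, 5 and 10. Cenpm, a centromere protein, went from 1.46 CPM in naive cells to 53.1, 19.0 and 1.59 CPM on days 3, 5 and 10. Ccnb1 (cyclin B1) went from 1.62 CPM in naive cells to 67.1, 22.0 and 1.93 CPM on days 3, 5 and 10. The 4th, 1500009L16Rik, stood at 2.54 CPM in naive cells and 80.6, 28.0 and 2.57 CPM on days 3, 5 and 10, so that all 4 were back at a naive level of under 3 CPM. Without cells carrying a Mki67 or Top2a UMI, however, their day 10 differences were 0.76 for Ccnb1, 0.74 for Dtl, 0.68 for Cenpm and 0.61 for 1500009L16Rik, beyond the limit for returned genes. With all cells kept, 20 naive cells had a UMI of Ccnb1, 17 of Dtl, 22 of Cenpm and 35 of 1500009L16Rik. The naive values thus rest on few UMIs, and no interval is given for these differences.

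For some of these division genes the naive value came from few cells. The whole G2 and mitosis list gave a median of 1 UMI per thinned cell in both libraries. Its mean was 1.30 UMIs in naive cells and 1.27 on day 10. Among thinned cells, at least 10 UMIs of the G2 and mitosis list were found in 23 of 4471 naive cells (0.514%), in 32.5% on day 3, in 6.98% on day 5 and in 2 of 5394 cells on day 10 (0.0371%). For the DNA replication list it was 16 naive cells and 0 on day 10, which allows a share of up to 0.0556%. Mki67 was found in 0.738% of thinned naive cells (95% interval 0.509% to 1.04%) and 0.222% of thinned day 10 cells (0.115% to 0.388%), or 1.17% and 0.440% unthinned, and its positive naive cells held a mean of 5.00 UMIs before thinning. Top2a, which encodes topoisomerase 2 alpha, differed in its spread. It was found in more cells on day 10, 1.25% of thinned naive cells (95% interval 0.947% to 1.62%) and 2.21% of thinned day 10 cells (1.83% to 2.63%), or 2.34% and 4.84% unthinned, while its level went from 22.4 CPM in naive cells to 583, 315 and 13.7 CPM on days 3, 5 and 10, and its positive cells held a mean of 3.70 UMIs in naive cells and 1.21 on day 10. Without cells carrying a Mki67 or Top2a UMI, which were 3.01% of naive and 5.21% of day 10 cells, the day 10 difference was 0.26 for Hist1h1b, -0.07 for Pclaf and -0.82 for Hist1h2ap. The median of the G2 and mitosis list was then 0.05 and that of the DNA replication list 0.12. The cells left out were chosen by UMIs of division genes, so these shifts were partly built in. The cholesterol list kept its direction without the Mki67 or Top2a cells, at a median of -0.55 with 20 of 21 genes below naive cells.

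Ccl5 had returned as a sum over cells but was spread over them differently. This chemokine of memory CD8 T cells went from 885 CPM in naive cells to 157, 602 and 1042 CPM on days 3, 5 and 10, and so had returned. It was found in 9.84% of thinned naive cells (95% interval 8.98% to 10.8%) and 23.3% of thinned day 10 cells (22.2% to 24.5%), or 11.9% and 30.3% unthinned. Among positive cells, before thinning, the mean was 28.7 UMIs in naive cells and 14.7 on day 10, so that fewer naive cells held more Ccl5 RNA each. In its lowest library of the 21, 5.07% of thinned cells had a Ccl5 UMI. Of 663 returned genes, 590 were found in at least 1% of thinned cells of either library, and among them Ccl5 was the only 1 whose share differed at least 2-fold between the pair. Of the 143 stayed genes at that share, 42 had a share at least 2-fold higher on day 10 and 96 at least 2-fold lower. Stayed genes were defined by a 2-fold difference in level between the same libraries, so such shares largely follow from the definition. Of the 5060 genes under 2-fold on days 3 and 10, 8 had such a higher share and 17 such a lower one.

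Of 13 measured cytotoxic and effector genes, 4 were at least 2-fold lower on day 10 and 0 as far above, against 4.05% and 1.49% of the 6370 genes. In all 6 of them were above naive cells, and their median was -0.02, which was 0.11 with TMM. The sum over all 22 genes of the list was 2331 CPM in naive cells and 2626 CPM on day 10. In thinned cells the list gave a median of 2 UMIs per naive cell and 3 on day 10, with means of 4.52 and 5.54. At least 10 UMIs of it were found in 6.15% of naive and 7.82% of day 10 cells. Such sums follow the highest genes of the list. Gzmb, the cytotoxic protease granzyme B, went from 6.50 CPM in naive cells to 766, 128 and 2.23 CPM on days 3, 5 and 10. Gzma, granzyme A, went from 32.5 CPM in naive cells to 47.6, 22.1 and 8.62 CPM on days 3, 5 and 10. Prf1, the pore-forming protein perforin, stayed lower, going from 40.0 CPM in naive cells to 8.43, 7.46 and 9.74 CPM on days 3, 5 and 10. Summed over cells, all 3 granule genes were thus below the naive level on day 10. The naive Gzma value came from 101 of 4777 cells before thinning, at a mean of 5.94 UMIs per positive cell. Serpinb6b, a serine protease inhibitor, crossed, going from 15.5 CPM in naive cells to 105, 25.1 and 2.06 CPM on days 3, 5 and 10. Nkg7, a protein of cytotoxic granules, stood at 499.9 CPM in naive cells and 525, 562 and 493 CPM on days 3, 5 and 10. Of these 5, only Nkg7 was within 0.5 of naive cells on day 10. Among activation genes, Anxa2, a membrane-binding annexin, crossed, going from 25.1 CPM in naive cells to 275, 72.7 and 3.22 CPM on days 3, 5 and 10. Tnfrsf9 (4-1BB), a costimulatory receptor, went from 6.88 CPM in naive cells to 89.9, 6.26 and 0.858 CPM on days 3, 5 and 10. Lgals1 (galectin 1) went from 204 CPM in naive cells to 1488, 722 and 119.8 CPM on days 3, 5 and 10. Anxa2, Tnfrsf9, Lgals1, Gzmb and Serpinb6b were each at their lowest of the 21 libraries on day 10. Of the 6 memory and effector transcription factor genes raised on day 3, Tbx21, Prdm1, Bhlhe40 and Irf8 had returned, Batf had crossed, at a difference of -0.67, and Irf4 had stayed. Of all raised genes 62.1% had returned. Of the 15 measured memory and effector transcription factors, 1 was at least 2-fold higher on day 10 and 4 as far below, against 1.49% and 4.05% of the 6370 genes. Their median was -0.30, and -0.19 with TMM. Over the 10 with at least 20 CPM in the pair it was -0.77, and at a filter of 50 CPM, which leaves fewer genes, 0.49.

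Set beside the other cultures, the 5 IU/mL IL-15 culture had the most genes back at the naive level. Each culture's genes were those changed on its own day 3, and all cultures share the naive library. Of raised genes, 62.1% had returned here, 43.8% in 50 IU/mL IL-15, 21.9% in 5 and 23.1% in 50 IU/mL IL-2. In IL-2v, an IL-2 mutant by its label, 14.4% had returned at 5 IU/mL and 24.6% at 50 IU/mL. Of lowered genes, 47.4% had returned here, 16.3% with 50 IU/mL IL-15, 29.3% and 5.51% with IL-2, and 10.9% and 7.09% with IL-2v. The share of tested genes at least 2-fold from naive cells on day 10 was 4.79% here, 9.41% with 50 IU/mL IL-15, 15.0% and 35.5% with IL-2, and 18.6% and 25.4% with IL-2v. Raised genes that had crossed were 19.2% here and 1.85% to 7.84% in the other 5 cultures, but the 144 genes behind the first share fell to 59, 93 or 32 under the alternatives given above, which were not computed for the other cultures. With 1 library each, these differences between cultures were not tested. The 50 IU/mL IL-2 and IL-15 cultures are named here by their titles, whereas their treatment labels read interleukin-3 and interleukin-16.

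**Figure D5:**
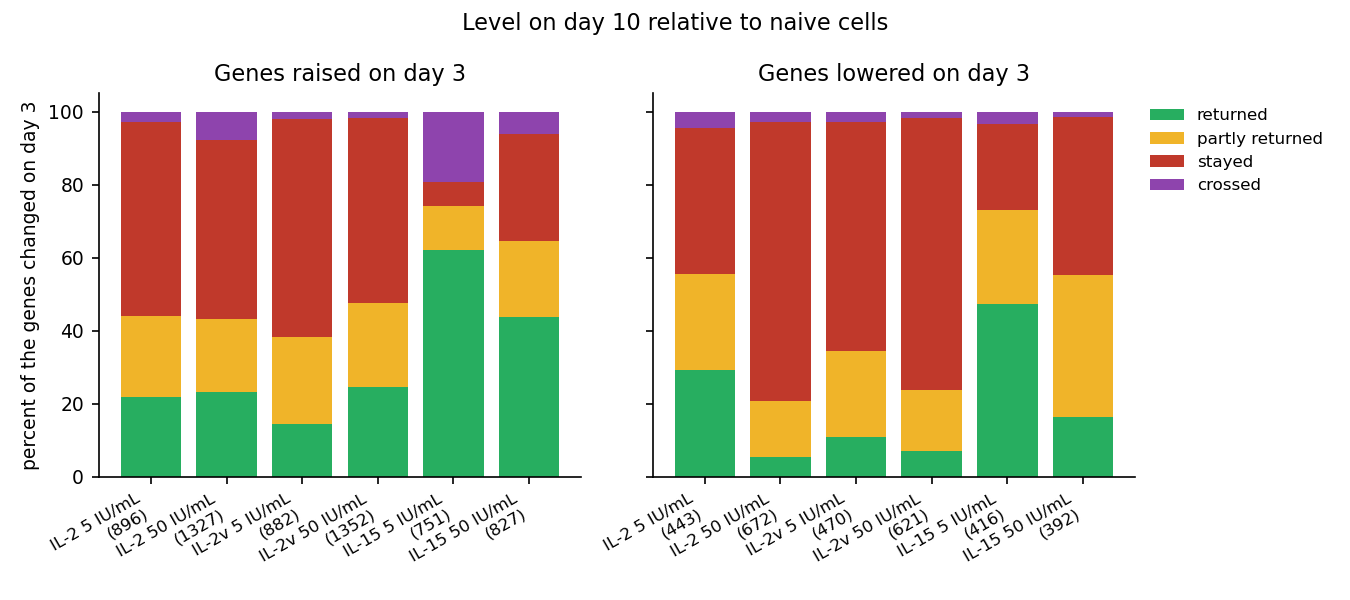
Percent of the genes raised (left) or lowered (right) at least 2-fold on day 3 of each culture (number in brackets) that had returned, partly returned, stayed or crossed on day 10 relative to naive cells. Bars are 1 culture each with no replicate. The 5 IU/mL IL-15 culture has the largest returned share in both panels, 62.1% and 47.4%.

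A few features of the gene models bear on single genes above. A near copy covering at least 50% of the longest transcript at 95% identity was found for 1 of the 71 higher and 9 of the 202 lower genes. The exons of Ccr9, Atp1b1, Ssbp2 and Hist1h2ap overlap a gene on the opposite strand over 18.8%, 18.7%, 22.1% and 28.6% of their bases, and whether the counting used strand is not given in the sources used here. A further gene of high level that was lower on day 10, chosen after its values were seen, is uncertain for the first reason: Gm10076 is a near copy of Rpl41 and stood at 1837 CPM in naive cells and 660 CPM on day 10.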

How the data were processed

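RNA of single mouse CD8 T cells was measured in 21 libraries, 1 per condition, of which the day 0 library and days 3, 5 and 10 of the 5 IU/mL IL-15 culture carry the results. The deposited values are raw UMI counts per gene symbol and cell, and the submitters' processing notes name Cell Ranger, Seurat 3.0.2 and 4.0.1 and the build mm10, with no role or order. The annotation, the cell filters, strand use and doublet removal before deposit are not given in the sources used here. The lowest naive barcode held 1010 UMIs, so cells of low depth may have been removed before deposit, which would raise median depths. The highest barcode held 12644 UMIs in the naive library and 13145, 13310 and 13373 on days 3, 5 and 10. Cells of high depth may therefore have been removed as well. Groups follow the sample titles. The treatment labels of 6 libraries conflict with their titles, all of them in the 50 IU/mL IL-2 and IL-15 cultures, where they read interleukin-3 and interleukin-16. Day 7 was not analysed here.

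Cells under 1000 UMIs or 500 genes, or above 10% mitochondrial UMIs, were to be left out, which removed none from the 4 libraries, and no doublet caller was run. Counts were summed per library and scaled to CPM, and differences were taken between log2(CPM + 1) values, with 1 as the pseudocount. Genes with at least 20 CPM in either library (or in any of the 4, for the course) were compared, and a difference of 1 or more, 2-fold on this scale, was called. Groups of 1 library allowed no test, so no p-value is given. Intervals are exact Poisson (CPM) and Clopper-Pearson (shares) at 95%, and cover counting error only. A count of 0 was given a limit of 3 counts. For shares, cells were thinned at random to 2000 UMIs, which left out 306 naive and 57 day 10 cells.

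Members and the 33 gene lists (635 genes, 630 in the tables) were chosen with earlier results of these data known. The text names the 10 highest and 10 lowest genes on day 10 among those with 50 CPM in the pair. It also names the 5 returned genes furthest up and the 5 furthest down on day 3, the 5 crossed genes with the largest day 10 difference and the 5 late genes at either end, and members of the lists. Results of a few of these genes are not reported here. Gene positions are from GENCODE for GRCm38 and promoters from RefSeq. A total of 17 alternatives of cells, scaling, filters and the course were tried: 13 for the pair and 4 for the course. Only the assignment of genes to the classes of the course was tested on simulated data. These were Poisson counts with changes set away from the class limits. Thinning, shares of cells, gene lists, motif matches and UMIs gathered in few cells were not covered. Python 3.11.15, numpy 2.4.6, scipy 1.17.1, pandas 2.3.3 and, for TMM, edgeR 4.0.16 in R 4.3.3 were used.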

Additional observations from a re-analysis of the deposited data

Results flagged for a closer look

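For 4 of the 10 highest and 10 lowest genes named above, another culture stood on the other side of the naive level on day 10, by 2-fold or more. The count does not cover the other genes named above, division genes among them. All differences are from the same naive library, on the log2(CPM + 1) scale, and with 1 library each the difference between cultures was not tested. The treatment labels of the 50 IU/mL IL-2 and IL-15 libraries conflict with the titles, which were followed. Prkcz, higher by 1.99 in 5 IU/mL IL-15, was at -1.53 in 50 IU/mL IL-2 and at -1.40 in 50 IU/mL IL-2v, and stood above naive cells in 50 IU/mL IL-15 (1.07) and 5 IU/mL IL-2 (1.25). Ssbp2, higher by 1.65, was at -1.36 in 50 IU/mL IL-2.

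Hist1h2ap, at -3.48 in 5 IU/mL IL-15, was at 3.88 in 5 IU/mL and 3.08 in 50 IU/mL IL-2v. It has near-identical copies in the genome. Cd69, at -2.59 in 5 IU/mL IL-15, was at 1.61 in 5 IU/mL IL-2, 1.06 in 50 IU/mL IL-2 and 1.03 in 50 IU/mL IL-2v, and at -0.74 in 50 IU/mL IL-15.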

How the results depend on the processing

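No paired analysis was possible because each condition had 1 library. Of 1688 values recomputed under alternatives, 1461 stayed close to the reported one, 223 moved and 4 changed sign. Among them were 237 counts, of which 164 stayed within 1.5 times and 73 did not, and 1053 values of single genes, of which 139 moved. Without cells carrying other lineages' markers, without cells carrying a Ccl5 UMI, or with at most 5% mitochondrial UMIs, no count moved by more than 1.5 times. Without cells with a Mki67 or Top2a UMI, Hist1h1b changed sign to 0.26 and Mki67 stood at 0.0, which is fixed because every cell with its UMI was left out, and 59 raised genes had crossed. Without cells above 2 times the median UMIs, 93 had crossed. Of gene lists with at least 5 tested genes, 2 had a day 10 median of 0.5 or more in size, memory and effector transcription factors and cholesterol synthesis, and the number was 1 with cells thinned to 2000 UMIs, with TMM, with CPM averaged over single cells, with a pseudocount of 10 and with a filter at 50 CPM.

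With TMM, 26 lowered genes had crossed, and late genes were 64 higher and 65 lower. With totals free of ribosomal protein and mitochondrial genes, which raise every CPM and let more genes pass the filter, 119 genes were higher on day 10, 89 raised genes had stayed, and 750 genes were lowered on day 3, of which 411 had returned, 170 were partly returned and 31 had crossed, and 63 late genes were higher. With the day 3 library without cytokine as the activated one, 22 lowered genes had crossed. With day 5 as the activated library 208 genes were raised (79 returned, 38 partly returned, 44 crossed) and 266 lowered (46 returned, 0 crossed).

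A pseudocount of 10 left 38 genes higher and 111 lower on day 10. Of the raised genes 49 were then partly returned, 16 had stayed and 32 had crossed, and of 227 lowered ones 105 had returned, 53 were partly returned, 60 had stayed and 9 had crossed, with 20 late genes higher and 45 lower. With no filter on low values 208 genes were higher and 739 lower. Of 1756 genes raised on day 3, 1191 had returned, 183 were partly returned, 111 had stayed and 271 had crossed, of 836 lowered ones 322, 223 and 272 had returned, partly returned and stayed, and late genes were 93 higher and 377 lower. A filter at 50 CPM left 38 higher and 81 lower. Of 419 genes raised on day 3, 273 had returned, 46 were partly returned, 27 had stayed and 73 had crossed, of 213 lowered ones 114, 49 and 39 had returned, partly returned and stayed, and late genes were 24 higher and 43 lower. At that filter the medians over genes tested on day 10 changed sign for memory and effector transcription factors, from -0.77 to 0.49, and for cholesterol synthesis, from -0.53 to 0.45, as fewer genes were tested. Calling genes returned under 0.3 made 157 raised genes partly returned and 223 crossed, and of the lowered 128 returned, 161 partly returned and 29 crossed. Under 1 it made 0 raised genes partly returned and 58 crossed, and of the lowered 315 returned, 0 partly returned and 3 crossed.

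Without cells with a Ccl5 UMI, the day 10 difference was 4.67 for Camk2n1 and -3.82 for Gpr183. Without cells above 2 times the median UMIs it was -1.43 for Mki67, -1.30 for Pclaf, -1.04 for Hist1h1b and -1.61 for Hist1h2ap. Without cells carrying other lineages' markers it was -0.84 for Ighd, which is itself 1 of those markers. Of single genes, Cd44 was at 2-fold in 6 of the 13 alternatives, Dnmt3a and Dusp2 in 9, Ighd in 11, and Jun, Kdm6b, Fdps, Ifit3, Itga6, Dusp10, Nfkbiz, Myb, Hist1h1b, Hist1h2ap, Mki67 and Pclaf in 12. With 1 library per condition, depth sets counting error alone, and differences between cultures or mice were not measured. The causes of these shifts were not tested.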

Other observations

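Immediate early genes, which T cells switch on within minutes of a stimulus, differed in direction. Of 15 tested, 8 lay within 0.5 of naive cells, 3 were at least 2-fold higher and 2 as far below. Over all tested genes those shares were 79.9%, 1.25% and 3.55%. Ier3, a survival gene induced by NF-kappa B, went from 5.58 CPM in naive cells to 11.9, 13.3 and 30.2 CPM on days 3, 5 and 10. Dusp2, a phosphatase of MAP kinases, went from 92.2 CPM in naive cells to 68.9, 73.1 and 187 CPM on days 3, 5 and 10, and its difference of 1.02 lay at the threshold. Jun, an AP-1 subunit, stayed raised from 9.96 CPM in naive cells to 30.01, 34.9 and 24.2 CPM on days 3, 5 and 10. All 3 ended above naive cells, while Dusp10 and Nfkbiz, which restrain stress kinases and tune NF-kappa B, ended at differences of -1.22 and -1.19.

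Chromatin genes took several paths. The maintenance methyltransferase Dnmt1 went from 58.3 CPM in naive cells to 186, 63.5 and 37.7 CPM on days 3, 5 and 10, and the Polycomb methyltransferase Ezh2 from 30.9 CPM in naive cells to 195, 79.9 and 33.4 CPM on days 3, 5 and 10. Both peaked on day 3, and Ezh2 had returned. The de novo methyltransferase Dnmt3a declined through the culture, from 45.3 CPM in naive cells to 32.9, 26.1 and 21.6 CPM on days 3, 5 and 10, to the lowest of the 21 libraries. Kdm6b, a demethylase of the Polycomb mark, stayed lower, from 45.1 CPM in naive cells to 16.1, 18.03 and 19.9 CPM on days 3, 5 and 10.

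Of 15 tested memory surface molecules, 9 lay within 0.5 of naive cells, 1 was at least 2-fold higher and 3 as far below, against 79.9%, 1.25% and 3.55% of all tested genes. Of the 17 measured over the course, 8 were above naive cells on day 10 and 9 below, with a median of -0.11. With TMM 10 were above and 7 below, with a median of 0.02. The sum over all 19 genes of the list was 2567 CPM in naive cells and 3228 CPM on day 10, and such a sum follows its highest genes. Of the lower ones, Il18r1, a chain of the interleukin-18 receptor, went from 63.1 CPM in naive cells to 38.5, 42.4 and 25.7 CPM on days 3, 5 and 10, and Cd160, a receptor of cytotoxic lymphocytes, from 25.9 CPM in naive cells to 42.3, 36.1 and 5.92 CPM on days 3, 5 and 10. Both were at least 2-fold below naive cells only on day 10. Art2b, an ADP-ribosyltransferase of resting T cells, had returned, from 54.0 CPM in naive cells to 14.5, 29.4 and 72.5 CPM on days 3, 5 and 10, its day 10 level being the highest of the 21 libraries. All 12 tested genes of fatty acid oxidation were within 0.5 of naive cells, where 79.9% of all tested genes were. Bbc3, which encodes the death protein PUMA, was above naive cells throughout the culture, at 35.9 CPM in naive cells and 56.0, 53.9 and 72.7 CPM on days 3, 5 and 10.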
